A study of Mus musculus with 9 samples.

Results

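Expression of 30 genes of cholesterol synthesis, sterol uptake and transfer, and control by the sterol regulatory element-binding proteins (SREBPs) was examined in mouse islets of Langerhans, the endocrine part of the pancreas. The genes were taken by symbol from a count table of 52459 gene symbols, and all 30 were among the 16826 genes with enough counts to be tested. They comprised 18 enzymes of sterol synthesis and 12 regulators and carriers. The table held RNA sequencing counts for 9 islet libraries, 3 from wild-type mice (WT, +/+), 3 from heterozygotes (db/+) and 3 from homozygotes (db/db). All were from mice 12 weeks old, with 1 strain label shared by the 3 groups and no treatment named. Mice with 2 copies of db, a loss-of-function allele of the leptin receptor gene Lepr, become obese and diabetic. The labels are silent on sex, on pooling of islets and on whether each library is a separate animal, and p-values then reflect spread among libraries that may be technical.

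Cells build cholesterol from acetyl-CoA. Early enzymes of the mevalonate pathway make farnesyl diphosphate, the next steps join it into squalene and close the rings of lanosterol, and a last series of enzymes trims lanosterol to cholesterol. When the endoplasmic reticulum is poor in sterol, the escort protein Scap carries SREBP precursors to the Golgi, where proteases release the active factors that switch on these genes, and when sterol is plentiful the Insig proteins hold Scap back. The liver X receptors (LXRs) sense oxysterols and switch on genes of cholesterol efflux. In beta cells, the cholesterol content of membranes affects granules and insulin secretion.

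Library totals ran from 8860024 to 11734886 counts, so that 3 counts, the limit that a count of 0 allows, corresponded to between 0.238 and 0.412 CPM (counts per TMM-normalised library size, counting error only). The summed CPM of 6 islet hormone genes was 99040 to 128400 for WT, 115500 to 129100 for db/+ and 96710 to 131900 for db/db, and these genes were abundant in every library. Lepr stood between 1.52 and 9.12 CPM in the 9 libraries, and its counts do not test the genotype, since the db mutation alters splicing. WT 1, WT 3 and db/db 1 held counts of Xist and of Y-linked genes together, while the db/+ libraries and WT 2 held almost no Xist, and db/db 2 and db/db 3 almost no Y-linked counts. Counts of Gm42418 and Lars2, which share sequence with ribosomal RNA, made up 17.9%, 13.3% and 0.0558% of db/db 1, 2 and 3. The same share was 1.89% to 2.58% for WT and at most 0.0237% for db/+. Summed markers of other cells were higher in all 3 db/db libraries than in any other for duct (855 to 1353 CPM against 406 to 448), for stellate cells, fibroblasts and pericytes (730 to 1937 against 221 to 347), for macrophages (157 to 229 against 92.2 to 125) and for endothelium (549 to 736 against 468 to 532). Acinar markers summed to 6220 to 11930 CPM for WT, 14160 to 32900 for db/+ and 16530 to 44780 for db/db. In bulk islets, fewer cells of a type and less RNA per cell cannot be told apart.

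Sterol synthesis genes were lower in db/db islets at several steps of the pathway, and so were the genes of both SREBPs. Of the 30 genes, 15 fell and 2 rose in db/db against WT, and 13 were not called. A call means that the p-value of edgeR's quasi-likelihood test, adjusted over all 16826 genes, was under 0.05. By the same rule 19.9% of all tested genes fell and 21.8% rose. The 30 genes were chosen with earlier results of these data known, so the shares are set side by side as description only. The 18 enzymes gave 9 that fell and 0 that rose, with a median log2 fold change of -0.34, while the 12 regulators and carriers gave 6 that fell and 2 that rose, with a median of -0.26. The median over all tested genes was 0.01. Against db/+, 16 of the 30 genes fell and 5 rose, beside 19.7% and 20.6% of all tested genes, and the enzymes gave 10 and 2 of these. The comparisons with WT and with db/+ share the db/db libraries and are given side by side. In 17 of the 30 genes every db/db library lay below all 6 others, and in 2 genes every one lay above. Those orders held for 19.0% and 20.2% of all tested genes.

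**Figure D1:**
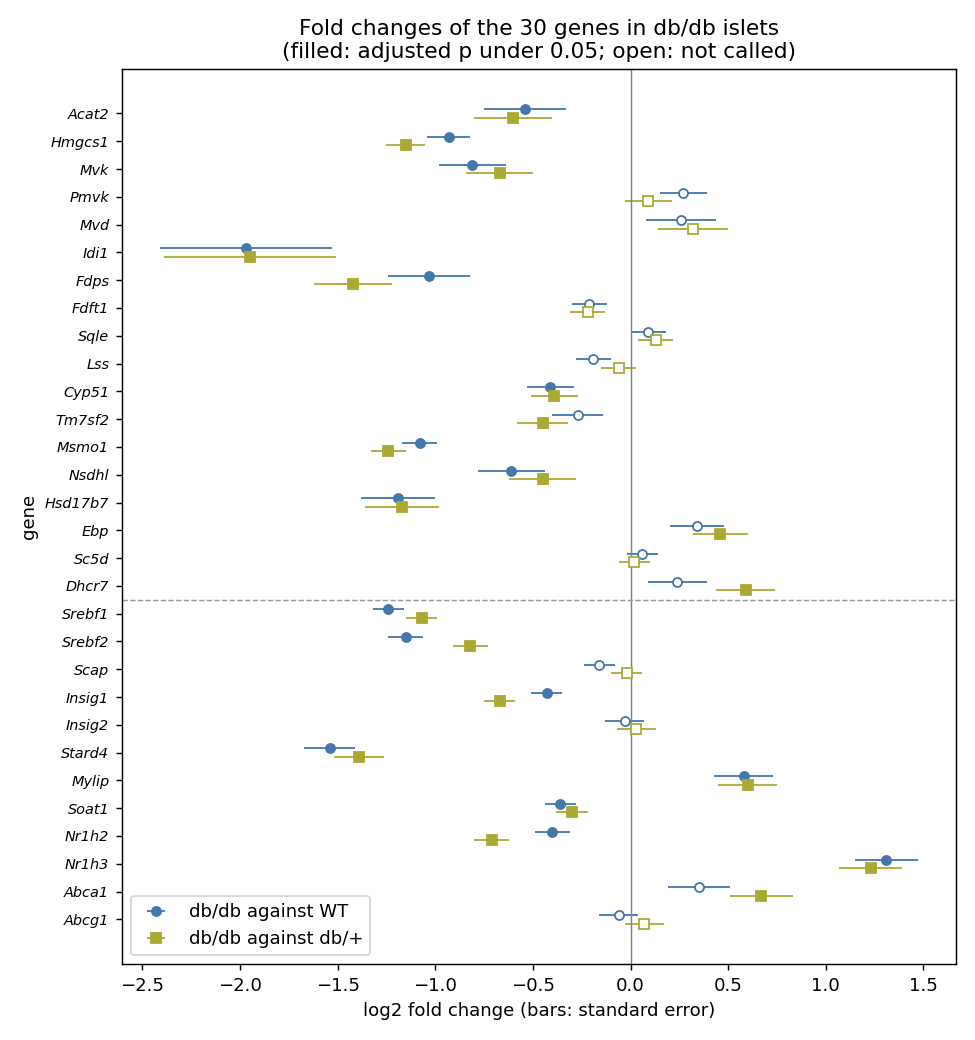
Log2 fold change of each of the 30 genes in db/db islets (horizontal axis), in pathway order from top to bottom, against WT (blue circles) and against db/+ (olive squares), with the standard error as bars. Filled symbols passed the test and open ones did not, and the dashed line divides the 18 enzymes from the 12 other genes. Idi1 has the lowest values, -1.97 and -1.95, and Nr1h3 the highest, 1.31 and 1.23.

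The bases before the start site are shown for 4 enzymes that fell and 3 that were not called in db/db against WT, since genes of this pathway are known to share promoter elements read by SREBPs and the CCAAT-binding factor NF-Y. Each line gives the 150 bases before the RefSeq start site (GRCm38.p6), 5′ to 3′ on the gene's own strand, with matches to the SRE core and the CCAAT box in capitals. The first 4 belong to Hmgcs1 (chr13:119690201-119690350, plus strand), Mvk (chr5:114444119-114444268, plus strand), Msmo1 (chr8:64733579-64733728, minus strand) and Hsd17b7 (chr1:169969206-169969355, minus strand), which fell. The last 3 belong to Mvd (chr8:122443423-122443572, minus strand), Lss (chr10:76531455-76531604, plus strand) and Sc5d (chr9:42264301-42264450, minus strand), which were not called.
Hmgcs1: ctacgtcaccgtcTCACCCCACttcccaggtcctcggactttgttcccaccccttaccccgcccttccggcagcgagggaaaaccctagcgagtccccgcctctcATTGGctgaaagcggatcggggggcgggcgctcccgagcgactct
Mvk: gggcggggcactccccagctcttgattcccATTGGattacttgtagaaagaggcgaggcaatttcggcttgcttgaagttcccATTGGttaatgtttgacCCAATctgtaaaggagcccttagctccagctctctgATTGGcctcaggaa
Msmo1: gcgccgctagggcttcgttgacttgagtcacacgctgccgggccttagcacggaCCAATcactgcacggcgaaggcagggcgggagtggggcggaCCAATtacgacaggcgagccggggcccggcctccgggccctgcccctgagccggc
Hsd17b7: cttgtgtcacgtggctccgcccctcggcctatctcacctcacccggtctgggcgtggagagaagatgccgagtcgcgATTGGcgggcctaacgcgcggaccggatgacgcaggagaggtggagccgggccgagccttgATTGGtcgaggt
Mvd: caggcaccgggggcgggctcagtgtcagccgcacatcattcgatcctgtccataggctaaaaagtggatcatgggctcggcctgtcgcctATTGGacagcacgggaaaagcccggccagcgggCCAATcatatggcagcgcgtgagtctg
Lss: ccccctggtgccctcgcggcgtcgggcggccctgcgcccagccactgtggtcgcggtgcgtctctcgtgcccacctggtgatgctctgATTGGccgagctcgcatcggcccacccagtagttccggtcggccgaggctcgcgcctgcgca
Sc5d: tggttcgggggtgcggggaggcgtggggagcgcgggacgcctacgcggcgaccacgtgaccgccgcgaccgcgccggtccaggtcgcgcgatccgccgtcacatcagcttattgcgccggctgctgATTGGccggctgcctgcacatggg

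Every one of these stretches holds a CCAAT box, read on either strand (ATTGG on the opposite strand), whether the gene fell or not. The search covered RefSeq's window of 300 bases, which spans each start site and lies mostly before it, and 25 of the 30 genes have such a window. Where a gene has several windows, a match in any of them was counted. CCAAT boxes were found in 14 of 15 enzymes with a window, in 7 of the 8 that fell and in all 7 that were not called. Among the latter, Dhcr7 held them only in its window furthest downstream, and Pmvk only in its upstream window. Of the other genes, 6 of 10 held one, and of all 10901 tested genes with a window 42.4% did. The SRE core, searched as TCACNCCAC on both strands with N for any base, was found in Hmgcs1 only among the 25 genes, 137 bases before the start (position -137), and in 1.34% of tested genes. The GC box GGGCGG was found in 14 of 15 enzymes and 8 of 10 other genes (67.6% of tested genes), and the E-box CACGTG in 3 of 15 and 3 of 10 (11.4%). Matches to different motifs may overlap, and a window without a match shows only that these letters are not in it.

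Of the 7 early enzymes, which lead to farnesyl diphosphate, 5 fell in db/db against WT and the same 5 against db/+, with 0 higher in either comparison. Hmgcs1 (chromosome 13, 119690351 to 119708260), which makes HMG-CoA from acetyl-CoA units, measured 116, 112 and 93.4 CPM across WT, 129, 133 and 112 across db/+ and 58.9, 60.3 and 49.7 across db/db. All 3 db/db libraries lay well below the lowest of the other 6, WT 3. The log2 fold change was -0.93 ± 0.11 (SE) against WT (adjusted p = 1.20e-05) and -1.15 ± 0.10 against db/+ (adjusted p = 2.10e-06). Idi1 (chromosome 13, 8885606 to 8892396), the isomerase that makes the second building block of isoprenoids, had the lowest fold change among the 30 genes. It was counted 33, 46 and 23 times in WT, 24, 43 and 42 times in db/+, and 2, 9 and 8 times in db/db. These correspond to 2.62, 4.15 and 2.34 CPM across WT, 1.94, 3.63 and 3.43 across db/+ and 0.274, 1.12 and 0.862 across db/db. The db/db libraries were the 3 lowest, and db/db 1 was under its own 3-count limit of 0.412 CPM. The fold change was -1.97 ± 0.44 against WT (adjusted p = 0.00269) and -1.95 ± 0.44 against db/+ (adjusted p = 0.00295), with the wide errors of a gene with few counts.

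Fdps (chromosome 3, 89093588 to 89101967), the farnesyl diphosphate synthase gene, measured 7.06, 5.96 and 7.42 CPM across WT, 8.89, 10.04 and 7.83 across db/+ and 3.98, 2.60 and 3.45 across db/db. Again, db/db held the 3 lowest values. Fdps fell by 1.03 ± 0.21 on the log2 scale against WT (adjusted p = 0.00143) and had a fold change of -1.42 ± 0.20 against db/+ (adjusted p = 1.03e-04). Mevalonate kinase, Mvk (chromosome 5, 114444264 to 114460591), measured 10.2, 9.57 and 8.74 CPM across WT, 9.38, 8.94 and 7.51 across db/+ and 5.08, 6.19 and 4.96 across db/db, the 3 lowest values. Its fold changes were -0.81 ± 0.17 (adjusted p = 0.00175) and -0.67 ± 0.17 (adjusted p = 0.00640). Acat2 (chromosome 17, 12943042 to 12960725), the cytosolic thiolase that opens the pathway, measured 6.59, 5.42 and 5.69 CPM across WT, 5.98, 5.82 and 6.61 across db/+ and 4.53, 4.58 and 3.13 across db/db. The db/db libraries were lowest here too, but by a smaller margin, with fold changes of -0.54 ± 0.21 (adjusted p = 0.0487) and -0.60 ± 0.20 (adjusted p = 0.0321). The Acat2 call against WT was lost when any WT library, any db/+ library or db/db 3 was left out (adjusted p from 0.0450 to 0.195 over all 9 left-out libraries). Against db/+ it was lost without any 1 of the db/+ libraries or db/db 3 (from 0.0333 to 0.147). Reads of Fdps and Acat2 can be shared with the overlapping genes Gm22935 and Gm20591, since the strand setting of the counting is not stated.

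The remaining early enzymes, Pmvk and Mvd, were not called. Pmvk, phosphomevalonate kinase, stood at 18.7 ± 2.14 CPM (SD, n = 3) in WT, 21.3 ± 2.04 in db/+ and 22.5 ± 1.74 in db/db. Mvd, mevalonate diphosphate decarboxylase, stood at 5.98 ± 0.691, 5.76 ± 0.248 and 7.15 ± 1.001 CPM. Their fold changes against WT were 0.27 ± 0.12 (adjusted p = 0.0882) and 0.26 ± 0.18 (adjusted p = 0.268). The db/db libraries of Pmvk lay just above WT and overlapped db/+, and those of Mvd lay just above db/+ and overlapped WT. The 95% intervals against WT, 0.01 to 0.53 for Pmvk and -0.13 to 0.64 for Mvd, leave room for a rise and none for a fall of the size seen in Hmgcs1.

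At the squalene and lanosterol steps 0 of 3 genes were called in either comparison. Fdft1, squalene synthase, measured 33.0, 31.4 and 30.7 CPM across WT, 33.0, 31.4 and 31.2 across db/+ and 26.6, 27.4 and 28.1 across db/db. The db/db libraries were the 3 lowest without overlap, but the small difference missed the threshold (-0.21 ± 0.09, adjusted p = 0.0637, and -0.22 ± 0.09, adjusted p = 0.0585). Part of the Fdft1 locus is annotated to Ctsb as well. Sqle, squalene epoxidase, stood at 108 ± 4.12 CPM in WT, 105 ± 5.37 in db/+ and 115 ± 12.9 in db/db, and Lss, lanosterol synthase, at 77.4 ± 1.72, 70.9 ± 9.66 and 67.8 ± 3.04 CPM. The 95% interval of the log2 fold change against WT was -0.10 to 0.27 for Sqle and -0.39 to 0.01 for Lss. Without db/db 1, Sqle was called higher against db/+ (0.23, adjusted p = 0.0347), up from 0.13 ± 0.09 with it.

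After lanosterol, 4 of 8 enzymes fell against WT and 0 rose, and against db/+ 5 fell and 2 rose. Msmo1 (chromosome 8, 64718123 to 64733578), the methyl sterol oxidase of C-4 demethylation, measured 118.8, 119.8 and 98.6 CPM across WT, 127 and 131 in db/+ 1 and 2, with db/+ 3 between WT 1 and WT 2, and 52.1, 55.5 and 52.2 across db/db. In db/db the values lay close together and far below the rest. The fold changes were -1.08 ± 0.09 (adjusted p = 6.36e-07) and -1.24 ± 0.09 (adjusted p = 1.69e-07), the smallest adjusted p among the enzymes. Hsd17b7 (chromosome 1, 169949535 to 169969242), the ketoreductase of the same demethylation, measured 9.20, 9.57 and 8.33 CPM across WT, 9.22, 9.70 and 7.99 across db/+ and 4.67, 4.21 and 3.13 across db/db. No db/db library came near the others, and the fold changes were -1.19 ± 0.19 (adjusted p = 2.15e-04) and -1.17 ± 0.19 (adjusted p = 2.33e-04). Nsdhl (chromosome X, 72918521 to 72958528), the dehydrogenase that acts between them, measured 10.95, 13.0 and 10.8 CPM across WT, 11.0, 10.4 and 9.54 across db/+ and 8.78, 5.95 and 7.97 across db/db. Nsdhl was lowest in db/db, with db/db 1 just under db/+ 3, and the fold changes were -0.61 ± 0.17 (adjusted p = 0.00908) and -0.45 ± 0.17 (adjusted p = 0.0453). Cyp51 (chromosome 5, 4080674 to 4104697), lanosterol demethylase, measured 74.98, 75.8 and 63.1 CPM across WT, 64.4, 78.9 and 68.0 across db/+ and 44.7, 56.2 and 59.5 across db/db. Its db/db libraries spread more but stayed below the rest, with fold changes of -0.41 ± 0.12 (adjusted p = 0.0120) and -0.39 ± 0.12 (adjusted p = 0.0156).

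Tm7sf2, a sterol reductase that acts directly after Cyp51, stood at 12.1 ± 1.02 CPM in WT, 13.7 ± 0.980 in db/+ and 10.1 ± 0.549 in db/db. It fell against db/+ (-0.45 ± 0.13, adjusted p = 0.0150) and missed the threshold against WT (-0.27 ± 0.13, adjusted p = 0.125), and its locus overlaps Vps51. Near the end of the pathway the order was different. Ebp (chromosome X), the sterol isomerase, measured 19.4, 25.0 and 25.1 CPM across WT and 22.2, 19.7 and 21.9 across db/+. Across db/db it measured 26.9, 24.9 and 35.5 CPM. Its db/db libraries overlapped WT but not db/+, and it rose against db/+ (0.46 ± 0.14, adjusted p = 0.0199, against 0.34 ± 0.14 and adjusted p = 0.0725 for WT). Dhcr7, the enzyme that makes cholesterol from 7-dehydrocholesterol, measured 11.7, 16.4 and 16.6 CPM across WT, 10.03, 12.7 and 12.2 across db/+ and 16.5, 18.6 and 17.46 across db/db. It too overlapped WT alone, and rose against db/+ (0.59 ± 0.15, adjusted p = 0.00754) while its difference from WT was 0.24 ± 0.15 (adjusted p = 0.227). Sc5d, which makes that precursor, hardly varied, at 45.2 ± 0.470 CPM in WT, 46.4 ± 0.821 in db/+ and 47.2 ± 2.61 in db/db (95% interval against WT -0.10 to 0.22). With 1 library left out, calls against db/+ ended for Cyp51 (without db/+ 2 or db/db 1, adjusted p from 0.0114 to 0.0728), Tm7sf2 (without db/+ 3 or db/db 3, from 0.0143 to 0.0644) and Ebp (without db/+ 2 or db/db 3, from 0.0113 to 0.124). That of Nsdhl was lost when any db/+ library was left out, or WT 1 or 3, or db/db 2 or 3 (from 0.0278 to 0.182), and Ebp was called against WT without db/db 2 (adjusted p = 0.0389).

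**Figure D2:**
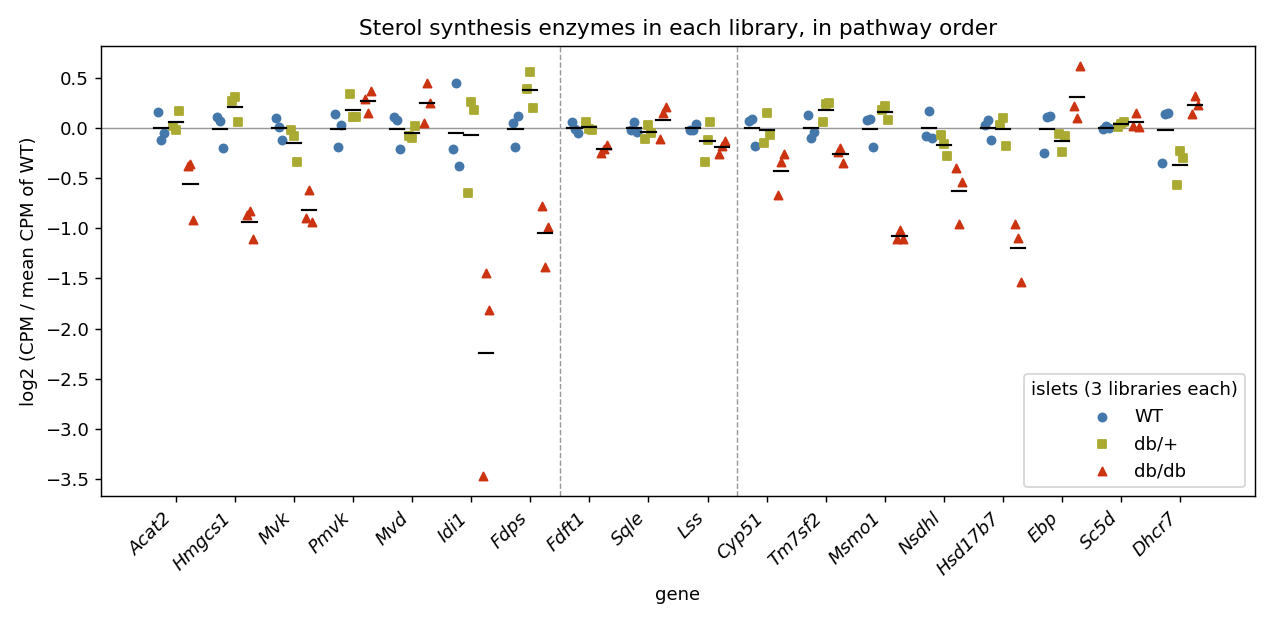
Level of each of the 18 synthesis enzymes in each library, as log2 of its CPM over the WT mean (vertical axis), in pathway order from left to right. Points are single libraries of WT (blue circles), db/+ (olive squares) and db/db (red triangles), bars are the mean of the 3 log2 values, and dashed lines divide the early, squalene and lanosterol, and later steps. The db/db points of Hmgcs1, Fdps, Msmo1 and Hsd17b7 lie clear below the others, and those of Sqle and Sc5d overlap the others and reach higher.

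Added up, the 18 enzymes came to 688, 698 and 637 CPM across WT, 681, 723 and 679 across db/+ and 503, 545 and 547 across db/db. The db/db sums were the 3 lowest. As a share of all counts, without normalisation, the enzymes made up 0.0656% to 0.0756% for WT, 0.0710% to 0.0768% for db/+, and 0.0414%, 0.0475% and 0.0551% of db/db 1, 2 and 3. By either measure db/db 1 was lowest, the library with 17.9% of counts in Gm42418 and Lars2. With both genes left out before the fit, 9 enzymes fell against WT and 10 against db/+, as with them. The median enzyme stood 0.32, 0.28 and 0.31 log2 units under its WT mean in db/db 1, 2 and 3 (values -0.32, -0.28 and -0.31). WT 3 was the lowest WT library for 10 of the 18 enzymes.

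The genes that control the pathway also differed, and 3 of the 5 fell in both comparisons. Srebf1 (chromosome 11, 60199084 to 60224186), which encodes SREBP-1, the isoform known for fatty acid synthesis genes, measured 181, 179 and 181 CPM across WT, 149, 175 and 159.7 across db/+ and 73.8, 75.4 and 80.2 across db/db. Every db/db library was below any other by a wide margin. Its fold changes were -1.24 ± 0.08 (adjusted p = 4.84e-08) and -1.07 ± 0.08 (adjusted p = 1.98e-07). Srebf2 (chromosome 15, 82147269 to 82205379), which encodes SREBP-2, the isoform known for cholesterol genes, measured 85.7, 89.4 and 104 CPM across WT, 69.7, 79.0 and 73.0 across db/+ and 43.9, 43.1 and 38.5 across db/db. The 3 groups followed each other without overlap, WT highest and db/db lowest. Its fold changes were -1.15 ± 0.09 against WT (adjusted p = 6.62e-07) and -0.82 ± 0.09 against db/+ (adjusted p = 1.30e-05). The Srebf1 locus overlaps Rai1, and introns of both genes hold microRNAs.

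Insig1 (chromosome 5, 28071412 to 28078662), which holds Scap in the endoplasmic reticulum and is itself an SREBP target, measured 163, 165 and 148 CPM across WT, 173, 201 and 188 across db/+ and 112, 123 and 118 across db/db. The groups did not overlap, and here db/+ was highest. It fell by 0.43 ± 0.08 on the log2 scale against WT (adjusted p = 6.85e-04), and its fold change against db/+ was -0.67 ± 0.08 (adjusted p = 1.82e-05). Insig2, its relative, measured 37.5, 40.3 and 34.3 CPM across WT, 33.6, 39.9 and 34.4 across db/+ and 38.3, 36.4 and 35.6 across db/db. These overlapped throughout, with a fold change against WT of -0.03 ± 0.10 (95% interval -0.23 to 0.18). Scap measured 109.7, 108 and 102 CPM across WT, 89.2 and 100.9 in db/+ 1 and 2, with db/+ 3 just under db/+ 2, and 88.9, 95.8 and 101 across db/db. Its db/db libraries ran from just under the lowest db/+ library to just above the highest, and all lay under those of WT. The fold changes of Scap, -0.16 ± 0.08 (adjusted p = 0.116) and -0.02 ± 0.08 (adjusted p = 0.864), were not called.

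Of the 3 genes of sterol transfer, uptake control and storage, 2 fell and 1 rose in both comparisons. Stard4 (chromosome 18, 33199138 to 33213862), a carrier of sterol between membranes and an SREBP target, measured 31.2, 26.2 and 28.0 CPM across WT, 25.6, 28.8 and 22.6 across db/+ and 10.02, 10.03 and 9.38 across db/db. Among db/db the values were nearly equal, and they were the lowest by far. Its fold changes were -1.54 ± 0.13 (adjusted p = 7.17e-07) and -1.39 ± 0.13 (adjusted p = 1.92e-06), the lowest among the 12 regulators and carriers. Soat1 (chromosome 1, 156428108 to 156474328), which esterifies cholesterol for storage, measured 45.5, 45.6 and 43.1 CPM across WT, 43.6, 42.1 and 43.3 across db/+ and 32.7, 37.3 and 34.8 across db/db. The db/db libraries lay below both other groups, which overlapped, and the fold changes were -0.36 ± 0.08 (adjusted p = 0.00335) and -0.30 ± 0.08 (adjusted p = 0.00995). Mylip (chromosome 13, 45389742 to 45411940), the ubiquitin ligase also called IDOL, is an LXR target that marks lipoprotein receptors for breakdown. It measured 11.0, 11.6 and 10.9 CPM across WT, 12.1, 11.1 and 9.71 across db/+ and 20.5, 15.5 and 14.1 across db/db. All 3 db/db libraries were above the others, db/db 1 most, and Mylip rose (0.58 ± 0.15, adjusted p = 0.00809, and 0.60 ± 0.15, adjusted p = 0.00631).

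The LXR genes went opposite ways. Nr1h3 (chromosome 2, 91184061 to 91202829), which encodes LXR-alpha, measured 4.36, 4.97 and 4.67 CPM across WT, 5.09, 4.56 and 5.06 across db/+ and 11.8, 12.0 and 10.9 across db/db. Every db/db library was above any other by a wide margin, and Nr1h3 rose by 1.31 ± 0.16 (adjusted p = 2.45e-05) and 1.23 ± 0.16 (adjusted p = 3.84e-05). Its locus overlaps Acp2. Nr1h2 (chromosome 7, 44549616 to 44553968), which encodes LXR-beta, measured 47.8, 46.9 and 41.7 CPM across WT, 53.4, 56.6 and 59.4 across db/+ and 32.3, 38.2 and 32.9 across db/db. As with Insig1, db/+ was highest and db/db lowest without overlap. It fell by 0.40 ± 0.09 on the log2 scale against WT (adjusted p = 0.00383), and the fold change against db/+ was -0.71 ± 0.09 (adjusted p = 4.44e-05).

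The efflux pumps Abca1 and Abcg1 are classical LXR targets, and only the first was called, against db/+. Abca1 (chromosome 4, 53030789 to 53159988), which loads cholesterol onto apolipoprotein A-I, measured 419, 336 and 364 CPM across WT, 339, 306 and 254 across db/+ and 396, 602 and 429.6 across db/db. The db/db libraries overlapped WT but lay above db/+, and db/db 2 was far above the other 2. Abca1 rose against db/+ (0.67 ± 0.16, adjusted p = 0.00841) and missed the threshold against WT (0.35 ± 0.16, adjusted p = 0.109). It was called against WT without db/db 1 (adjusted p = 0.0403) and with DESeq2 (adjusted p = 0.0490). Abcg1 (chromosome 17, 31057694 to 31117984) measured 80.6, 87.8 and 89.3 CPM across WT, 81.6, 80.5 and 74.1 across db/+ and 68.8, 85.7 and 92.5 across db/db. Its db/db libraries held both the lowest and the highest of the 9 values, and its fold changes of -0.06 ± 0.10 (95% interval -0.27 to 0.15) and 0.07 ± 0.10 were not called. LXR-alpha and its targets are also expressed by macrophages, whose summed markers were 157 to 229 CPM in db/db. Of 12 tested macrophage markers, 3 rose against WT and 6 against db/+, beside 21.8% and 20.6% of all tested genes. Against WT, Cd68 stood at -0.18 (adjusted p = 0.584) and C1qa at 0.85 (adjusted p = 3.96e-05). The part of macrophages in the levels of Nr1h3, Mylip and Abca1 was not tested.

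**Figure D3:**
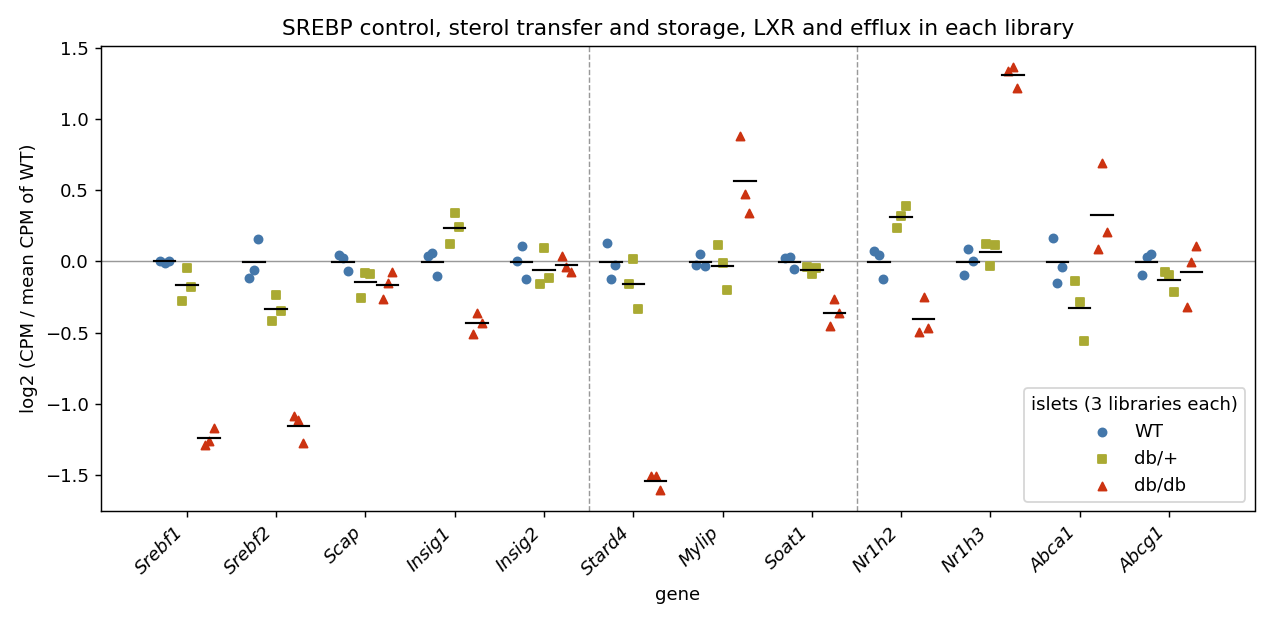
Level of each of the 12 regulators and carriers in each library, as log2 of its CPM over the WT mean (vertical axis), for the SREBP control genes, the transfer, uptake and storage genes, and the LXR and efflux genes, divided by dashed lines. Points are single libraries (WT blue circles, db/+ olive squares, db/db red triangles) and bars the mean of the 3 log2 values. The db/db points lie below all others for Srebf1, Srebf2, Insig1, Stard4, Soat1 and Nr1h2, and above all others for Mylip and Nr1h3.

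The heterozygotes were set against WT to see whether a single db allele goes with a difference. None of the 30 genes was called between db/+ and WT by edgeR's test, where 0.820% of all tested genes fell and 0.606% rose. At an unadjusted p under 0.05 there were 5 of the 30 genes, beside 2620 of the 16826 tested, a share near that background. All db/+ libraries lay below WT in 3 of the 30 genes and above in 3, beside 1755 and 2033 of all tested genes. Limma-voom called 0 of the 30, and DESeq2 called 1, Srebf2. Its fold change of -0.33 ± 0.09 had an adjusted p of 0.0900 with edgeR and 0.0305 with DESeq2, and db/+ lay below WT in every library. Nr1h2 (0.31 ± 0.09, adjusted p = 0.108) and Insig1 (0.24 ± 0.08, adjusted p = 0.157) were above WT in every db/+ library, and Srebf1 (-0.16 ± 0.07, adjusted p = 0.299) was below. Dhcr7 (-0.35 ± 0.15, adjusted p = 0.280) overlapped. The number of genes called in all, 240, depended on single libraries. It was 44 without WT 3, 23, 27 and 58 without db/+ 1, 2 and 3, and 430, 79 and 106 without db/db 1, 2 and 3.

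Levels of different genes were compared per kilobase of exon, for the 29 genes with a length (Hmgcs1 had none). Length was the union of all exons annotated to a gene, which can be longer than any of its transcripts. In WT, Insig1 was highest at 60.1 CPM per kb, then Abca1 (36.0), Srebf1 (32.0), Abcg1 (21.1) and Scap (20.5). Idi1 (1.06), Hsd17b7 (1.77) and Nr1h3 (1.86) were lowest. In db/db, Abca1 (45.9 CPM per kb) and Insig1 (44.4) were the 2 highest, Srebf1 stood at 13.6, and Nr1h3 at 4.60. Srebf1 thus went from above Sqle (19.5 CPM per kb in WT) to below it (20.7 in db/db).

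Other genes of sterol metabolism were counted from lists of related genes. Of 6 tested other sterol enzymes, 3 fell and 0 rose against WT (50% and 0%). Among these Lbr, a sterol reductase of the nuclear membrane, fell from 51.9 ± 1.54 to 38.5 ± 0.904 CPM (-0.43 ± 0.08, adjusted p = 4.82e-04). Of 14 tested genes of SREBP transport and turnover, 1 fell and 3 rose (7.14% and 21.4%, beside 19.9% and 21.8% of all tested genes). Mbtps1, the site-1 protease that cleaves SREBPs, fell by 0.32 ± 0.06 on the log2 scale (adjusted p = 0.00119). Pgrmc1, a membrane protein reported to bind Insig1 and Scap, rose by 0.87 ± 0.08 (adjusted p = 2.92e-06) and Aup1 by 0.33 ± 0.09 (adjusted p = 0.0120). Of 21 genes of sterol uptake and transport, 3 fell and 8 rose (14.3% and 38.1%). The apolipoprotein E receptor gene Lrp8 (-0.94 ± 0.16) and the oxysterol-binding Osbpl1a (-0.51 ± 0.13) fell, while Gramd1b, a carrier of cholesterol from the plasma membrane (1.13 ± 0.12), and Lrpap1, a chaperone of lipoprotein receptors (0.67 ± 0.09), rose. Of 10 tested LXR partners and targets, 3 fell and 4 rose (30% and 40%). Scd2, a desaturase, fell from 377 ± 45.3 to 118.8 ± 12.4 CPM and the coactivator gene Ncoa1 from 153 ± 9.93 to 97.0 ± 5.33 CPM, while Nceh1, a cholesteryl ester hydrolase (1.06 ± 0.10), and Smpdl3a (0.97 ± 0.11) rose. Against db/+, the counts that fell and rose were 2 and 0, 1 and 2, 4 and 7, and 3 and 4 in the order of these lists. Of all tested genes, 19.7% fell and 20.6% rose in that comparison.

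**Figure D4:**
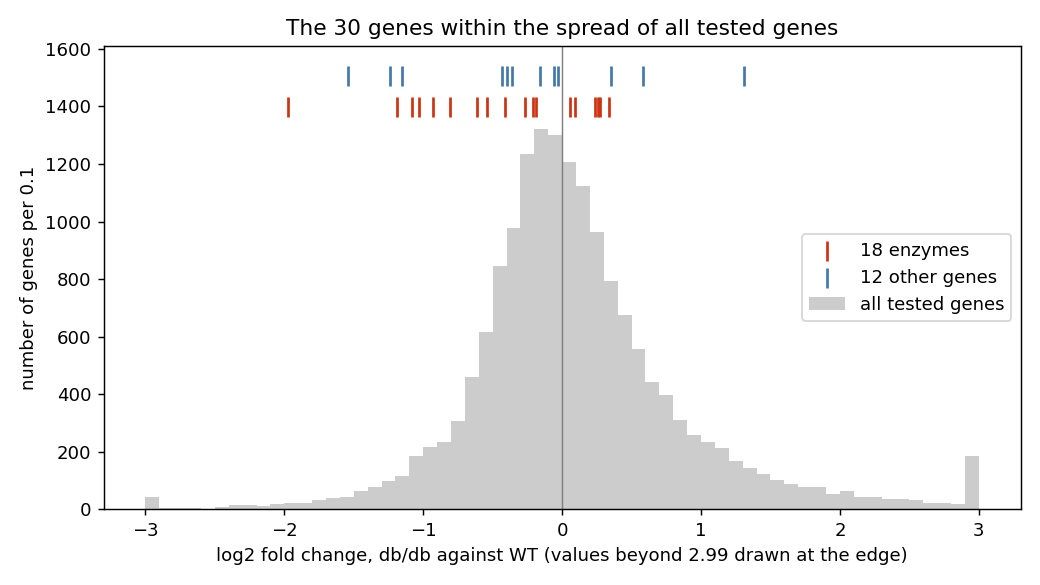
Number of tested genes (vertical axis) by log2 fold change in db/db against WT (horizontal axis, bins of 0.1, grey bars), with a tick for each of the 18 enzymes (red, lower row) and the 12 other genes (blue, upper row). The 10th percentile of all tested genes is -0.68 and the 90th is 1.03, and the enzyme ticks of Idi1, Hsd17b7, Msmo1, Fdps, Hmgcs1 and Mvk lie to the left of that range.

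Some properties of the libraries ran with genotype. The letter that opens the sample titles, whose meaning the labels do not give, was G for all db/+ libraries, WT 1 and WT 2, and H for WT 3 and all db/db libraries. With the letter as a term of the fit, 10 of the 17 calls against WT and 9 of the 21 against db/+ remained, with 5 and 3 enzymes lower. The letter varies only within WT, so that term rests on WT 3 against WT 1 and WT 2 alone. The mean log2 CPM of acinar markers was 6.63 to 7.45 for WT, 7.66 to 8.87 for db/+ and 8.18 to 9.35 for db/db, without overlap between db/db and WT. With it as a term, 9 of 17 calls against WT (4 enzymes lower) and 20 of 21 against db/+ (9 enzymes lower) remained. Summed Y-linked CPM was 222.5 to 345.8 for WT, 374.3 to 413.1 for db/+, and 169.8, 1.097 and 0.1075 in db/db 1, 2 and 3. The db/db libraries thus lay below both other groups without overlap. With the log2 of summed Y-linked CPM as a term, 14 of 17 and 13 of 21 remained, with 6 and 5 enzymes lower. Against WT, the calls that ended with that term were those of Acat2, Fdps and Nsdhl. Against db/+ they were those of Acat2, Mvk, Tm7sf2, Nsdhl, Hsd17b7, Ebp, Dhcr7 and Abca1. Among these genes only Nsdhl and Ebp lie on chromosome X. Ebp had 0.29 against db/+ (adjusted p = 0.394). Nsdhl had -0.38 against WT (adjusted p = 0.286) and -0.19 against db/+ (adjusted p = 0.656). Without WT 1, WT 3 and db/db 1 together, 14 of 17 and 21 of 21 remained, with 8 and 10 enzymes lower, and without db/db 1 alone 17 of 17 and 20 of 21. Calls that ended in the 3 fits with such a term kept the sign of their fold change. With the letter, Mylip had 0.61 against WT and 0.65 against db/+, Abca1 0.72 against db/+, and Cyp51 -0.23 and -0.14, and with the acinar mean Acat2 had -0.86 against WT. What these properties contribute to the differences was not tested further. The calls of Hmgcs1, Msmo1, Srebf1, Srebf2, Stard4 and Nr1h3 were made against both groups under every one of 22 alternatives, that of Hsd17b7 against WT only, and that of Fdps against db/+ only.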

How the data were processed

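The authors deposited read counts per gene symbol, without normalisation. The submitters' processing notes name bcl2fastq 2.20.0.422 and the aligner TopHat2 2.0.14, with mm10 as the genome. Per the labels' protocols, RNA was taken with Trizol and libraries were made after ribosomal RNA removal (Ribo-Zero Gold). How reads were counted (program, annotation, strand) is not given in the sources used here. The table has 1 column that matches no sample, which was not used. Genes that passed filterByExpr were scaled with TMM, and fitted in 1 model of all 9 libraries with edgeR 4.0.16 (R 4.3.3, robust, 6 residual degrees of freedom). Pairs of groups were compared by the two-sided quasi-likelihood F-test with Benjamini-Hochberg adjustment at 0.05, and adjusted p-values are from this test unless another is named. Standard errors come from the fold change and the F statistic. The test was first checked on simulated data. The members and lists were chosen with earlier results of these data known. All 30 members are accounted for, and from each related list the 2 risen and 2 fallen genes with the smallest adjusted p against WT are named, except for an item that is not reported here. Gene positions and promoters are those of RefSeq (GRCm38.p6), and exon lengths come from an annotation of another assembly.

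Marker lists not given above were 7 lymphocyte genes (0 of 4 tested called), 6 adipocyte genes (1 tested, Fabp4, which rose, Adipoq at 0 in every library) and 5 of steroidogenic cells (1 tested, Star, which rose, Hsd3b1 at 0 in every library). Against WT, 8 of 17 acinar, 8 of 9 duct, 7 of 10 stellate, fibroblast and pericyte, and 5 of 7 endothelial markers rose, and of 6 islet hormone genes 1 rose and 1 fell. Of all tested genes, 21.8% rose and 19.9% fell in that comparison. Alternatives were DESeq2 size factors or library totals for TMM, other low-count filters, DESeq2 1.42.0, limma-voom (limma 3.58.1, robust), only the compared groups, a test against a 1.5-fold change, 3 covariates (title letter, acinar mean, Y-linked sum), Gm42418 and Lars2 removed, WT 1, WT 3 and db/db 1 removed, and each library left out. Figures were drawn with matplotlib 3.10.9.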

Additional observations from a re-analysis of the deposited data

How the results depend on the processing

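No paired analysis was possible because the labels give no replicate numbers and the numbers used here only follow the order of the samples. No direction of a called gene reversed under any alternative. With library totals as the scale, the median of all genes moved to -0.22 in both db/db comparisons, and the split became 5317 lower and 2176 higher against WT (3348 and 3670 with TMM) and 5265 and 2011 against db/+ (3314 and 3459). That scale left 1 regulator or carrier higher against WT and 0 enzymes higher against db/+.

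The number of genes called in db/db against WT was 7018, and 4425 with the title letter as a covariate, 3321 with the acinar mean, 4644 with the Y-linked sum, 4449 without WT 1, WT 3 and db/db 1, and 1809 in the test against a 1.5-fold change. Enzymes lower against WT were 5 with the letter, 4 with the acinar mean and 4 in the 1.5-fold test. Regulators and carriers were 3 lower in the 1.5-fold test, and 1 higher with the letter, with the acinar mean, without the 3 libraries and in the 1.5-fold test. Against db/+, 6773 genes were called, and 2033 with the letter, 4368 with the Y-linked sum and 1663 in the 1.5-fold test. Enzymes lower against db/+ were 3, 5 and 5 under these settings, and enzymes higher 0 under each. Regulators and carriers were 3 lower in the 1.5-fold test, and 1 higher with the letter and in the 1.5-fold test. Between db/+ and WT, 240 genes were called, and 768 without a low-count filter, 641 with DESeq2, 45 with the letter, 79 with the acinar mean, 406 with the Y-linked sum, 97 without the 3 libraries and 0 in the 1.5-fold test. Of the regulators and carriers, 1, Srebf2, was lower than WT without the filter and with DESeq2. Limma-voom called 246 with robust shrinkage, a setting chosen after its counts were seen. With its default shrinkage, as planned, 52 genes were lower and 67 higher, again with 0 of the 30 members called. The causes of these shifts were not tested. With each library left out, the count ranged from 23 to 430 for genes called in db/+ against WT, from 0 to 1 for enzymes higher in db/db against WT, and from 1 to 3 against db/+.

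Sign changes were confined to members near 0 that were not called. Against WT they were Sqle (-0.13 with library totals and -0.13 with the Y-linked sum), Sc5d (-0.16 with library totals), Insig2 (0.10 with the letter, 0.05 with the Y-linked sum) and Abcg1 (0.28 with the acinar mean, 0.02 without the 3 libraries). Against db/+ and with library totals they were Pmvk (-0.14), Sqle (-0.09), Sc5d (-0.20), Insig2 (-0.20) and Abcg1 (-0.15). The letter gave Scap 0.08 and Abcg1 -0.02, the Y-linked sum gave Sqle -0.11, Sc5d -0.01 and Abcg1 -0.26, omission of the 3 libraries gave Scap 0.02 and Insig2 -0.01, and Sc5d was at 0 without a filter. With 1 library left out, Insig2 ranged from -0.09 to 0.03 and Abcg1 from -0.15 to 0.05 against WT. Against db/+ the ranges were -0.17 to 0.03 for Lss, -0.02 to 0.05 for Sc5d, -0.08 to 0.03 for Scap, -0.02 to 0.11 for Insig2 and -0.02 to 0.19 for Abcg1. Abcg1 was called lower against WT with the Y-linked sum (-0.35). Depth limits Idi1 most, with 2 to 9 counts in db/db.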

Other observations

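Targets of SREBP-1 in fatty acid synthesis divided in db/db islets. Of 11 tested genes, 6 fell and 4 rose against WT (54.55% and 36.4%, beside 19.9% and 21.8% of all tested genes). Against db/+ 4 fell and 2 rose (36.4% and 18.2%, beside 19.7% and 20.6%). Fatty acid synthase, Fasn, fell from 279 ± 3.04 to 167 ± 7.76 CPM (-0.74 ± 0.08, adjusted p = 4.79e-06), and Acaca, acetyl-CoA carboxylase, from 39.6 ± 2.13 to 23.0 ± 2.05 CPM (-0.78 ± 0.10, adjusted p = 3.91e-05). Pnpla3, a lipid droplet protein, rose from 2.25 ± 0.332 to 12.5 ± 2.18 CPM (2.48 ± 0.22, adjusted p = 1.30e-06), and Thrsp, a regulator of lipid synthesis, from 2.69 ± 0.565 to 6.89 ± 3.06 CPM (1.34 ± 0.32, adjusted p = 0.00411).

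Of 5 tested oxysterol and ester enzymes, 4 rose and 0 fell against WT, beside 21.8% and 19.9% of all tested genes. Against db/+ 2 rose, beside 20.6%. The 5 were genes of low level. Cyp7b1, an oxysterol hydroxylase, went from 3.97 ± 0.585 to 9.94 ± 2.21 CPM (1.31 ± 0.21, adjusted p = 2.58e-04), and Lcat, which esterifies cholesterol in plasma, from 0.603 ± 0.285 to 3.10 ± 1.16 CPM (2.29 ± 0.43, adjusted p = 8.26e-04). The isoprenoid branch, which draws on farnesyl diphosphate for protein prenylation, dolichol and ubiquinone, had 1 gene that fell and 1 that rose of 13 against WT. Each is a share of 7.69%, below the 19.9% and 21.8% of all tested genes. Coq2, of ubiquinone synthesis, fell by 0.28 ± 0.10 on the log2 scale (adjusted p = 0.0348), and Rabggtb, of Rab prenylation, rose by 0.24 ± 0.08 (adjusted p = 0.0297). Against db/+ this branch had 4 that fell and 1 that rose (30.8% and 7.69%, beside 19.7% and 20.6% of all tested genes). Rce1, a protease of prenylated proteins, was the only gene of the related lists called between db/+ and WT (0.43 ± 0.10, adjusted p = 0.0458). Lipa, the lysosomal acid lipase, rose by 1.10 ± 0.17 (adjusted p = 1.66e-04) and Scarb1, the receptor for high-density lipoprotein, by 0.96 ± 0.14 (adjusted p = 8.82e-05) against WT. The last 2 genes were picked with their values in view.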
